A study of Danio rerio with 6 samples.

Results

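The genes described here encode the contractile machinery of skeletal muscle other than the myosin heavy chains: actins, tropomyosins and troponins, myosin light chains and myosin-binding proteins, nebulin and titin, Z-disc proteins, the channels and pumps that couple the action potential to calcium release, parvalbumins and creatine kinases. They were found by gene symbol from a list of 42, with no threshold on a measured value, though the list was drawn up with earlier results of these data known. All 42 symbols were found in the deposited annotation, 41 had a row in the table of 22350 genes, and all 41 passed the filter on low counts; mybpc2a, a fast myosin-binding protein C, had no row and was not analysed here.

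RNA was measured in wild-type (AB strain) zebrafish larvae whose spinal cord had been fully transected 5 days after fertilization. After 6 h of recovery, some larvae were held in 35 µM IWR-1, an inhibitor of canonical Wnt signalling, with 0.25% DMSO as its solvent. The others were held in 0.25% DMSO alone, and each treatment gave 3 samples. Each sample was about 1 mm of trunk around the injury, pooled from 20 fixed animals at 8 days post fertilization, 3 days after injury; every animal was thus injured, and both treatments held the solvent. Whole tissue was taken, with no isolation of muscle fibres. The labels call the replicates biological without saying what a replicate number shares. Unless the replicate number enters the fit, p-values set the difference between treatments against the spread among pools of the same treatment. They rest on these 6 pools.

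In a sarcomere, myosin heads of the thick filament pull on actin of the thin filament when calcium binds troponin C and tropomyosin moves off the binding sites. Calcium is released when the voltage-sensing channel of the T-tubule (Cacna1s) opens the ryanodine receptor of the sarcoplasmic reticulum, and is taken back by the calcium pump Atp2a1, buffered by parvalbumin and stored on calsequestrin. Larval zebrafish trunk muscle is mostly fast-twitch with a superficial layer of slow-twitch fibres, which use different isoforms of many of these proteins.

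None of the 41 listed genes passed the test between IWR-1 and DMSO larvae (0 of 41, edgeR's quasi-likelihood test, Benjamini-Hochberg adjusted p below 0.05), where 7.47% of the 19562 tested genes did. The smallest adjusted p was 0.0593, for tnni2b.1. The log2 fold changes of IWR-1 over DMSO ran from -0.79 to 0.67 with a median of 0.06, against a median of -0.01 over all tested genes; 25 were above 0 and 16 below. The 95% intervals of 37 of the 41 lay within a 2-fold change in either direction, and those of 22 within a 1.5-fold change. An unadjusted p below 0.05 was found for 8 genes, 5 with higher and 3 with lower values in IWR-1, where 24.1% of all tested genes had one, and the 2 groups did not overlap for 10 genes, 5 higher and 5 lower, where 29.8% of all tested genes did not overlap. DESeq2 called 1 gene, tnni2b.1, lower, where it called 7.96% of all genes with an adjusted p. By the authors' deposited table only tnni2b.1 of the 41 had an adjusted p below 0.05 (log2 fold change -0.70, adjusted p = 0.0139). The share of all genes below that threshold in the deposited table was not counted here.

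Over all tested genes, not the 41 alone, deviations from the group means correlated at 0.293, 0.341 and 0.159 between the samples of replicate numbers 1, 2 and 3. Correlations between unlike numbers are not given here. The labels do not say what a number shares, so the pairing comes from these same data. With that number as a block in the edgeR fit 7 of the 41 genes were called. The 5 that rose were tnnt3b, tnnt3a, mybphb, neb and actn3a, where 8.96% of all tested genes rose, and the 2 that fell were tnni2b.1 and tpm2, where 8.86% of all tested genes fell. The share called, 7 of 41, stands beside 17.8% over all tested genes in that fit. Of these 7 genes, 5 had groups that did not overlap, where 29.8% of all tested genes, called or not, had such groups. The 7 were called from the same values, so this comparison does not bear on the calls. The share among all genes called in that fit was not counted here. For tnnt3a and tnnt3b the groups overlapped through DMSO replicate 3. Without DMSO replicate 3 and with no block, mybphb, tnnt3a and tnnt3b were called higher and tnni2b.1 lower, 4 of the 41 where 10.7% of all tested genes were called. Without DMSO replicate 1 tnni2b.1 was called lower, 1 of the 41 where 3.39% of all tested genes were called, and leaving out any other library gave 0. When both libraries of replicate number 1, 2 or 3 were left out of the fit with the block, tnni2b.1 and tnnt3b were called each time. The other 5 of the 7 genes were not called in at least 1 of these fits. Over all tested genes the fits called 11.2%, 11.6% and 22%. Outside the 7 genes, acta1b was called without number 2, and mybpc2b and pvalb3 without number 3.

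**Figure D1:**
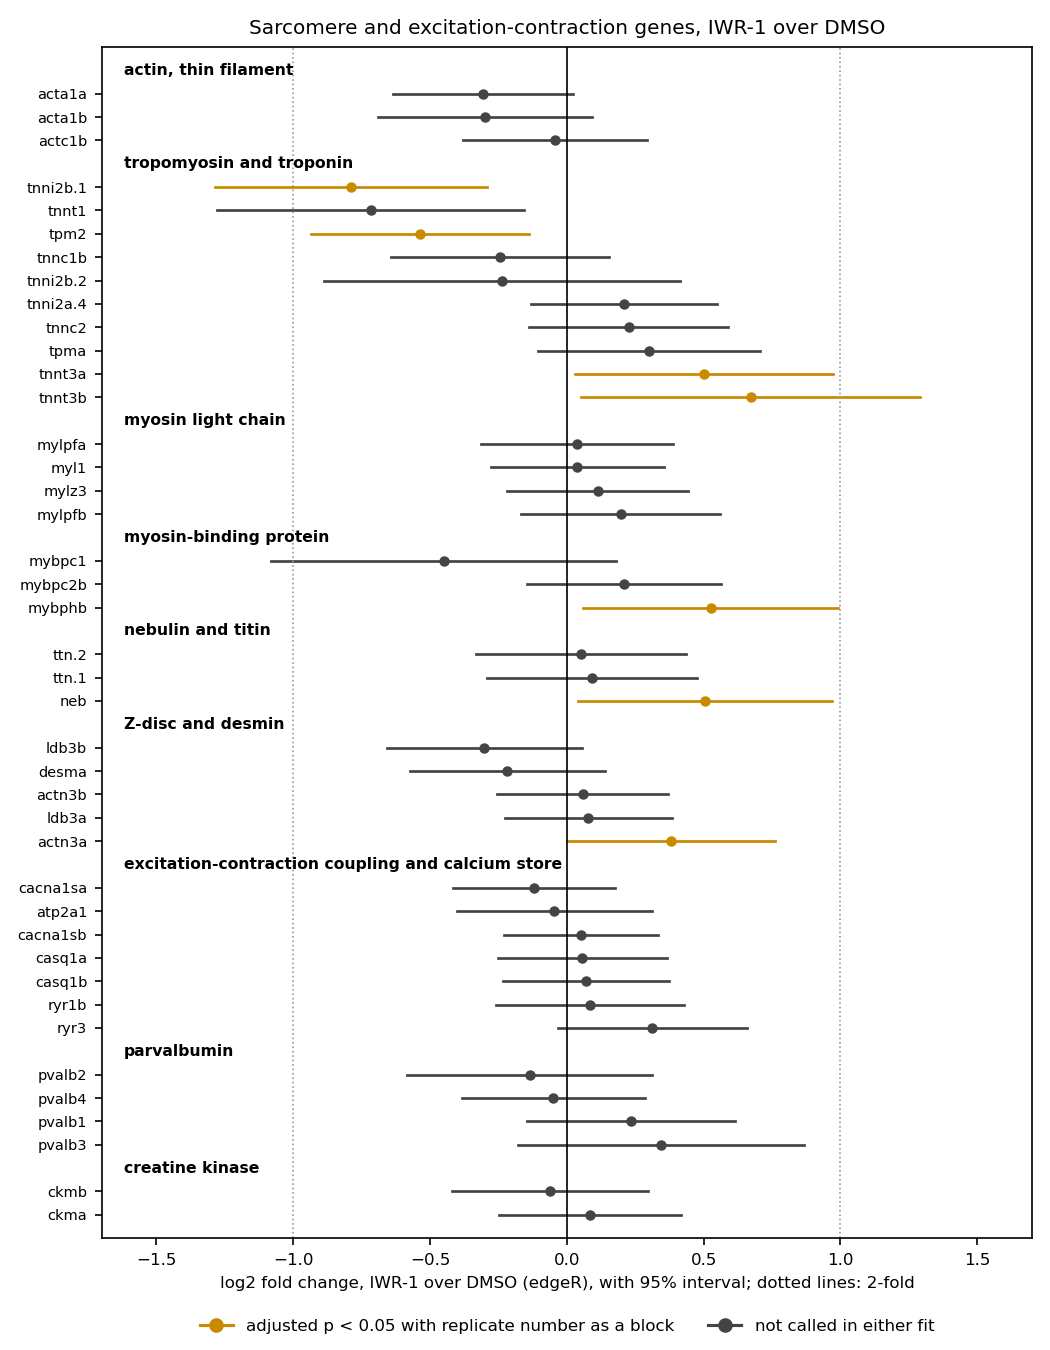
Log2 fold change of IWR-1 over DMSO for the 41 genes, grouped by role, with 95% intervals from the edgeR fit without a block; dotted lines mark a 2-fold change. The points lie between -0.79 and 0.67, and the 7 genes called with the replicate number as a block are drawn in amber.

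Summed over the 41 genes, the machinery took 21.9%, 19.7% and 18.9% of all counts in IWR-1 replicates 1, 2 and 3, against 19.6%, 18.8% and 19.1% in DMSO replicates 1, 2 and 3. The mean was 20.2 ± 1.53% with IWR-1 and 19.2 ± 0.42% with DMSO (SD, n = 3 each), and the groups overlapped. Mitochondrial genes took 9.22%, 9.69% and 12.7% of counts with IWR-1, against 7.08%, 6.32% and 10.4% with DMSO. With these genes left out of the total, the 41 genes took 24.1%, 21.8% and 21.7% with IWR-1, against 21.1%, 20.0% and 21.3% with DMSO, and the groups did not overlap. The titin genes ttn.1 and ttn.2 alone made up between 8.61% and 11.6% of each library. Without them the share was 10.3 ± 0.03% with IWR-1 and 9.78 ± 0.31% with DMSO; the lowest IWR-1 library was at 10.26% and the highest DMSO library at 10.09%. In such samples a difference in the number of muscle cells and a difference in RNA per cell cannot be told apart. Total counts per library lay between 11014963 and 15219664, and the gene of the 41 with the fewest counts, tnnt1, had 19 to 23 counts with IWR-1 and 26 to 43 with DMSO.

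**Figure D2:**
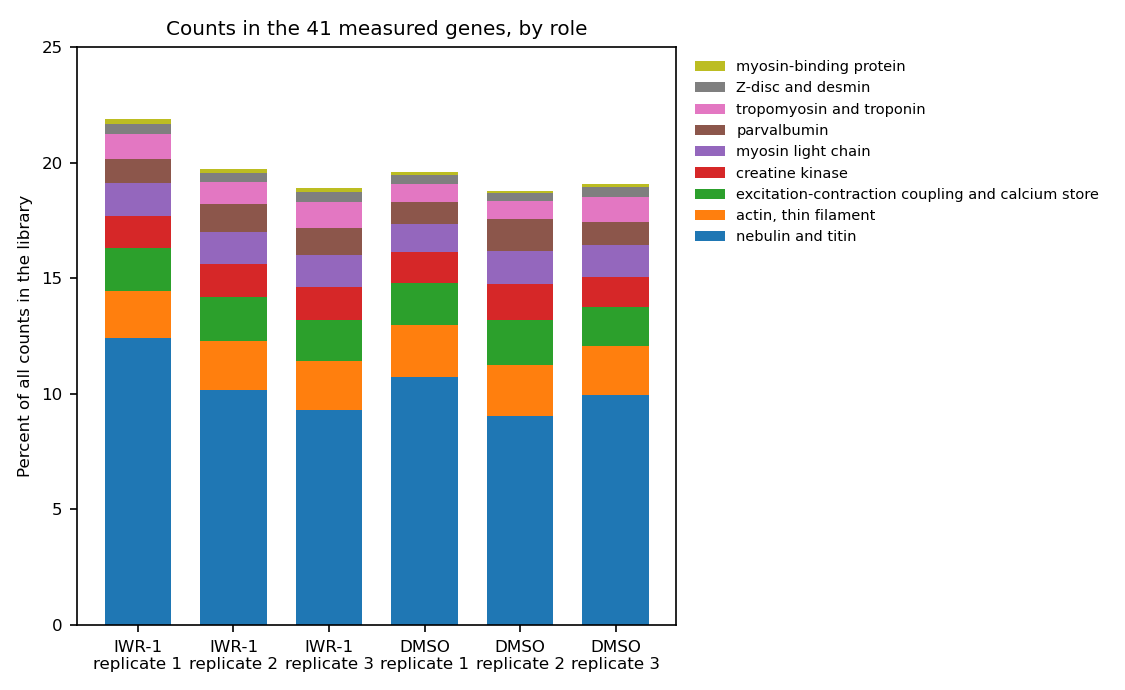
Percent of all counts in each library that fell in the 41 genes, stacked by role, for the 3 IWR-1 and 3 DMSO libraries. Nebulin and titin form the largest block in every library, from 9.05% in DMSO replicate 2 to 12.4% in IWR-1 replicate 1.

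Markers of other tissues in the block were present in all libraries, and some moved with treatment; over all tested genes 3.59% were called lower and 3.88% higher. The summed level of 16 fibroblast matrix markers was 18368 to 22492 CPM (counts per library total in the usual CPM unit, with totals scaled by TMM) with IWR-1 against 26981 to 28849 CPM with DMSO, and 10 of its 17 gene IDs were called lower. Of 15 epidermis markers 5 were called lower and 1 higher (3268 to 4856 against 5549 to 6808 CPM), and of 15 macrophage markers 5 were called higher (834 to 1248 against 910 to 1052 CPM). Of 9 tested notochord markers 2 were called lower (1442 to 3009 against 2426 to 2995 CPM), and none of 20 neuron markers (577 to 668 against 587 to 631 CPM) or 8 smooth muscle markers (53.3 to 73.5 against 66.8 to 69.2 CPM) was called. The median log2 fold change of the macrophage markers was 0.81, with 13 values above 0 and 2 below. With the replicate block 8.86% of all tested genes fell and 8.96% rose. In that fit 13 fibroblast matrix gene IDs were called lower and 1 higher, and 7 epidermis markers lower and 2 higher. Of the macrophage markers 9 were called higher, and of the notochord markers 2 lower. For neurons 4 markers were called higher and 1 lower, and 1 smooth muscle marker was called lower. Of 12 heart muscle markers 3 were tested, with a summed level of 5.11 to 6.89 CPM with IWR-1 against 7.54 to 10.96 CPM with DMSO, and 1 was called higher and 1 lower. The part of these tissues in the values of the muscle genes was not tested.

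The thin filament is built on α-actin. actc1b, the actin gene with the most counts here, had 17708, 17804 and 17908 CPM in IWR-1 replicates 1, 2 and 3, against 18348, 19648 and 17054 CPM in DMSO replicates 1, 2 and 3. The 3 IWR-1 libraries lay inside the DMSO range, and the log2 fold change was -0.04 ± 0.15 SE (95% interval -0.38 to 0.29, edgeR adjusted p = 0.892). The skeletal α-actin genes acta1a and acta1b had log2 fold changes of -0.31 and -0.30, with edgeR adjusted p of 0.240 and 0.330. For acta1a the groups did not overlap, at 656 to 727 CPM with IWR-1 against 769 to 966 CPM with DMSO. Reads from near-identical actin genes may be shared between them, so the split among the actins is uncertain.

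Tropomyosin and troponin sit on actin and make contraction depend on calcium; this role held both the lowest and the highest fold changes of the 41 genes. tpma, the fast-muscle α-tropomyosin, had 4338, 3623 and 4450.0 CPM in IWR-1 replicates 1 to 3, against 2821, 3085 and 4167 CPM in DMSO replicates 1 to 3. The groups overlapped through DMSO replicate 3, and the log2 fold change of 0.30 ± 0.18 SE did not pass (edgeR adjusted p = 0.346). tpm2, β-tropomyosin, had 212, 229 and 243 CPM with IWR-1, against 257, 419 and 316 CPM with DMSO. All IWR-1 values were below all DMSO values. Its log2 fold change was -0.54 ± 0.18 SE (edgeR adjusted p = 0.100). In the fit with the block tpm2 fell by 0.51 (adjusted p = 0.0167), a call lost when both libraries of number 2 were left out (0.133). Without DMSO replicate 2, where it was highest, the log2 fold change was -0.33.

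The troponin I gene tnni2b.1 had 52.4, 63.8 and 59.9 CPM with IWR-1, against 70.9, 143 and 90.3 CPM with DMSO. The groups did not overlap, and the DMSO values differed among themselves by 2.02-fold. The log2 fold change was -0.79 ± 0.23 SE (edgeR adjusted p = 0.0593); with the replicate block tnni2b.1 fell by 0.73 (adjusted p = 0.00215). Without DMSO replicate 2 the log2 fold change was -0.45. The other fast troponin I genes of the 41 were tnni2a.4, at a log2 fold change of 0.21 (adjusted p = 0.441, with 1277 to 1363 CPM in IWR-1 against 960.0 to 1276 CPM in DMSO), and tnni2b.2, below 6 CPM in every library, at -0.24 (adjusted p = 0.661). Of these 3 genes tnni2a.4 took the most counts in every library.

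Troponin T ties the troponin complex to tropomyosin. tnnt3b, of the fast type, had 2244, 1593 and 2366 CPM in IWR-1 replicates 1 to 3, against 1159, 809 and 1926 CPM in DMSO replicates 1 to 3. In both groups replicate 2 was lowest and replicate 3 highest, and the ratio of IWR-1 to DMSO within replicates 1, 2 and 3 was 1.94, 1.97 and 1.23. The log2 fold change was 0.67 ± 0.28 SE (edgeR adjusted p = 0.175), and with the block tnnt3b rose by 0.74 (adjusted p = 0.00236). Its paralog tnnt3a had 434, 421 and 493 CPM with IWR-1, against 267, 243 and 442 CPM with DMSO, with the same order of the replicates. Its log2 fold change was 0.50 ± 0.21 SE (adjusted p = 0.182), and with the block tnnt3a rose by 0.55 (adjusted p = 0.0122; 0.155 with both libraries of number 1 left out and 0.0590 with both of number 2). Without DMSO replicate 3 the fold changes of tnnt3b and tnnt3a were 1.07 and 0.82 on the log2 scale, and both were called (adjusted p = 0.0145 and 0.0103); without DMSO replicate 2 they were 0.43 and 0.35.

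tnnt1, the slow troponin T, had few counts, at 1.65, 1.49 and 1.63 CPM with IWR-1, against 2.56, 2.45 and 2.84 CPM with DMSO. The groups did not overlap, at a log2 fold change of -0.72 ± 0.26 SE that did not pass (edgeR adjusted p = 0.118, and 0.0910 with the block). The troponin C genes tnnc2, of fast muscle, and tnnc1b, of slow muscle, had log2 fold changes of 0.23 and -0.24 (adjusted p = 0.433 and 0.439).

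Some of these genes lie side by side, in GRCz11 coordinates of the deposited annotation. On chromosome 7, all on the plus strand, tnni2b.2 (39385540 to 39394430) is followed 5.32 kb on by tnni2b.1 (39399747 to 39406763) and 38.1 kb further by tnnt3b (39444843 to 39460363). Within this stretch the log2 fold changes of tnni2b.1 and tnnt3b had opposite signs, -0.79 and 0.67, and both were called with the block. On chromosome 25, tnni2a.4 (31276842 to 31288658) is followed after 117 kb by tnnt3a (31405266 to 31418457); both had values above 0. ttn.1 and ttn.2 on chromosome 9, pvalb3 and pvalb2 on chromosome 12 and pvalb4 and pvalb1 on chromosome 3 are the other pairs within 200 kb of each other.

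**Figure D3:**
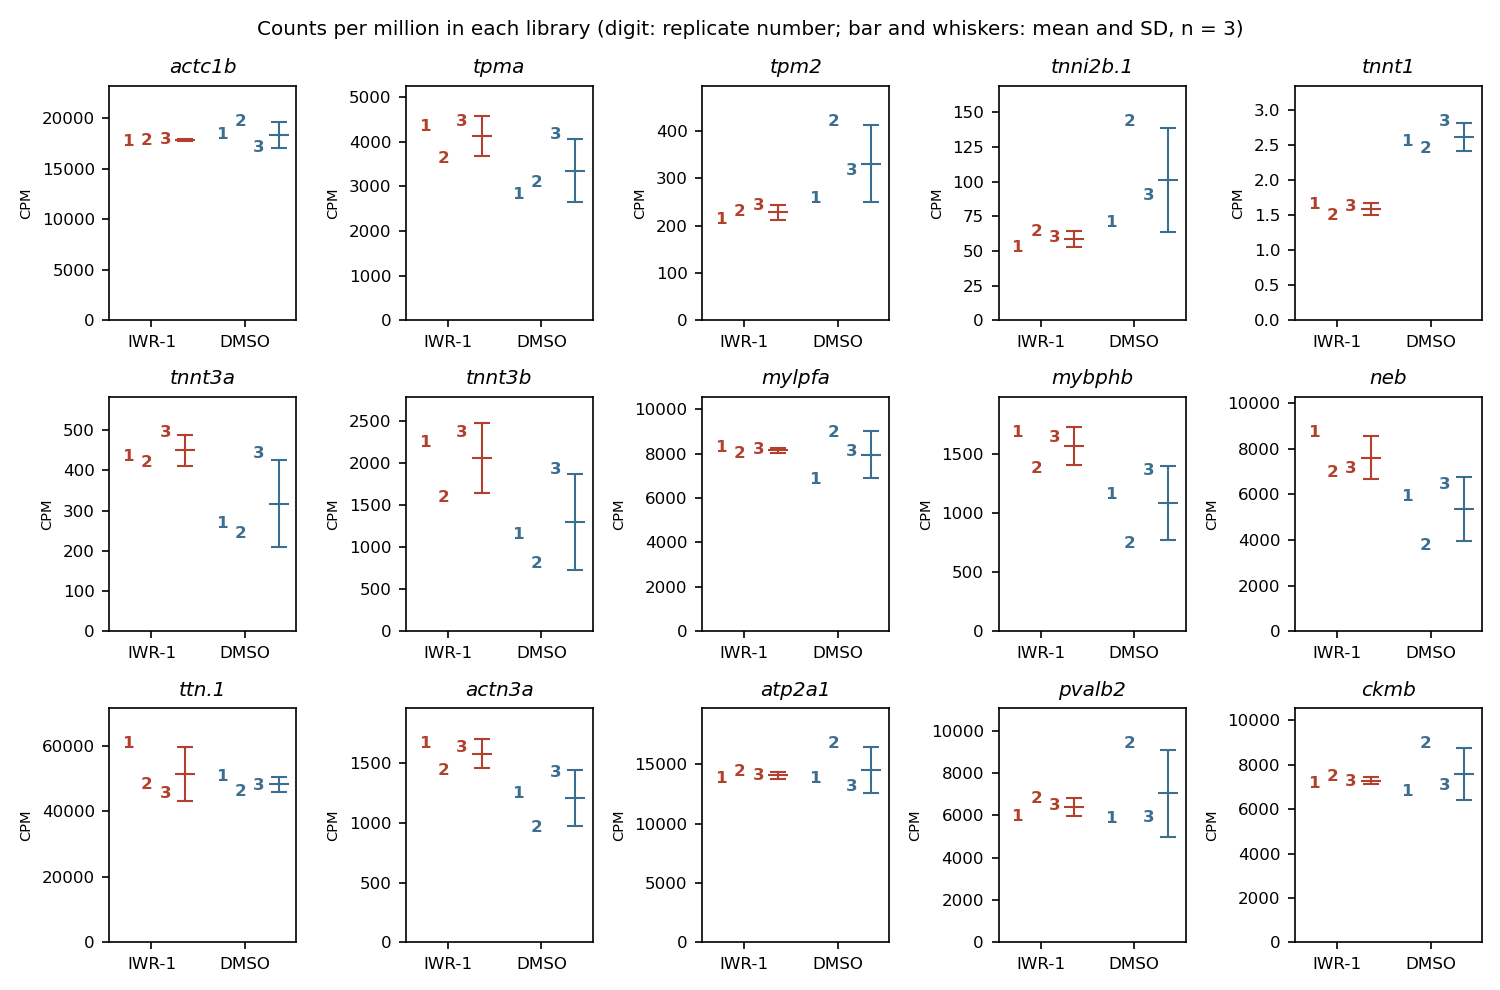
CPM in each library for 15 genes, with digits giving the replicate number and bars and whiskers the mean and SD (n = 3), IWR-1 left and DMSO right; each vertical axis starts at 0. For tnnt3b, tnnt3a, mybphb, neb and actn3a the 3 IWR-1 libraries sit mostly above the DMSO libraries, and for tpm2, tnni2b.1 and tnnt1 below them.

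The myosin light chains wrap the neck of the myosin head. mylpfa, the phosphorylatable light chain of fast muscle, had 8252, 8020.5 and 8176 CPM in IWR-1 replicates 1 to 3, against 6824, 8934 and 8071 CPM in DMSO replicates 1 to 3. The IWR-1 libraries lay inside the DMSO range, at a log2 fold change of 0.04 ± 0.16 SE (95% interval -0.32 to 0.39, edgeR adjusted p = 0.911). All 4 light chain genes, with mylpfb and the essential light chains myl1 and mylz3, had values above 0, from 0.04 to 0.20, with adjusted p from 0.498 to 0.911.

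Myosin-binding proteins run in stripes along the thick filament. mybphb, which encodes a myosin-binding protein H, had 1681, 1382 and 1638 CPM with IWR-1, against 1161, 744 and 1360.0 CPM with DMSO. Every IWR-1 library was above every DMSO library, with DMSO replicate 2 lowest. It had a log2 fold change of 0.53 ± 0.21 SE (edgeR adjusted p = 0.160); with the block mybphb rose by 0.57 (adjusted p = 0.0104; 0.0686 with both libraries of number 1 left out and 0.0645 with both of number 2), and without DMSO replicate 2 the value was 0.32. mybpc2b, of fast muscle, was at 0.21 (adjusted p = 0.457) and mybpc1, of slow muscle and at most 10.3 CPM, at -0.45 (adjusted p = 0.366).

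Nebulin lies along the thin filament, and titin runs from the Z-disc to the M-line as the spring of the sarcomere. neb had 8705, 6976 and 7158 CPM with IWR-1, against 5924, 3752 and 6421 CPM with DMSO. The groups did not overlap. At 0.50 ± 0.21 SE on the log2 scale neb was not called (edgeR adjusted p = 0.175), and with the block it rose by 0.54 (adjusted p = 0.0204; 0.121 with both libraries of number 1 left out and 0.125 with both of number 2). Within replicate numbers 1, 2 and 3 the ratio of IWR-1 to DMSO was 1.47, 1.86 and 1.11, and without DMSO replicate 2 the log2 fold change was 0.31.

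ttn.1 had 60552, 47981 and 45326 CPM with IWR-1, against 50439, 46069 and 47904 CPM with DMSO. IWR-1 replicate 1 was the highest library and IWR-1 replicate 3 the lowest, so that the groups overlapped. Its log2 fold change was 0.09 ± 0.17 SE (95% interval -0.29 to 0.47, adjusted p = 0.787) and -0.04 without IWR-1 replicate 1; that of ttn.2 was 0.05 (adjusted p = 0.889). No transcript lengths were used here, so levels are not compared between genes of unlike length.

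At the Z-disc, α-actinin cross-links the thin filaments of neighbouring sarcomeres. actn3a had 1663, 1441 and 1632 CPM with IWR-1, against 1249, 962 and 1425 CPM with DMSO. The groups did not overlap, though IWR-1 replicate 2 and DMSO replicate 3 were close. The log2 fold change was 0.38 ± 0.17 SE (edgeR adjusted p = 0.205), and with the block actn3a rose by 0.40 (adjusted p = 0.0458; 0.282 with both libraries of number 1 left out and 0.174 with both of number 2). Without DMSO replicate 2 the value was 0.25. Its paralog actn3b was at 0.06 (95% interval -0.25 to 0.37). ldb3a and ldb3b, which encode a PDZ-LIM protein of the Z-disc, were at 0.08 and -0.30, and desma, the muscle intermediate filament gene desmin, was at -0.22 (adjusted p = 0.770, 0.281 and 0.443).

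The 7 genes of excitation-contraction coupling lay between -0.12 and 0.31 on the log2 scale. atp2a1, the calcium pump of the sarcoplasmic reticulum, had 13818, 14381 and 14019 CPM in IWR-1 replicates 1 to 3, against 13778, 16717 and 13108 CPM in DMSO replicates 1 to 3. The IWR-1 libraries lay inside the DMSO range, at a log2 fold change of -0.05 ± 0.16 SE (95% interval -0.40 to 0.31, edgeR adjusted p = 0.890). The voltage sensor genes cacna1sa and cacna1sb were at -0.12 (interval -0.42 to 0.17) and 0.05 (-0.23 to 0.33). The ryanodine receptor gene ryr1b was at 0.08 (-0.26 to 0.43), and the calsequestrin genes casq1a and casq1b at 0.06 (-0.25 to 0.37) and 0.07 (-0.23 to 0.37). ryr3, a second ryanodine receptor type, had the largest value of this role, 0.31 ± 0.16 SE (adjusted p = 0.254, and 0.114 with the block), with 1653 to 2183 CPM in IWR-1 against 1454 to 1616 CPM in DMSO and no overlap.

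Parvalbumins bind calcium in the cytosol and speed relaxation. pvalb2 had 5942, 6785 and 6482 CPM with IWR-1, against 5836, 9382 and 5884 CPM with DMSO. DMSO replicate 2 stood above the other 5 libraries, and the log2 fold change was -0.14 ± 0.20 SE with all libraries (95% interval -0.58 to 0.31, edgeR adjusted p = 0.723) and 0.13 without that one. pvalb1, pvalb3 and pvalb4 were at 0.23, 0.34 and -0.05, with adjusted p of 0.439, 0.403 and 0.874. Creatine kinase regenerates ATP at the filaments. ckmb had 7151, 7469 and 7247 CPM with IWR-1, against 6799, 8948 and 7071 CPM with DMSO, again within the DMSO range. Its log2 fold change was -0.06 ± 0.16 SE (95% interval -0.42 to 0.30, adjusted p = 0.852), and that of ckma was 0.08 (adjusted p = 0.776).

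Among replicates, the DMSO libraries differed more than the IWR-1 libraries for most of these genes. The ratio of the highest to the lowest library was larger with DMSO for 32 of the 41, where it was for 65.3% of all tested genes; its median was 1.17 with IWR-1 and 1.33 with DMSO. Among the DMSO libraries replicate 1 was lowest for 21 genes and highest for 4, replicate 2 lowest for 16 and highest for 14, and replicate 3 lowest for 4 and highest for 23. The median deviation over the 41 genes was -0.13, -0.02 and 0.08 on the log2 scale in DMSO replicates 1, 2 and 3. Replicate 2 was lowest for tnnt3b, mybphb, neb and actn3a and highest for tnni2b.1, tpm2, pvalb2 and ldb3b. The ratio was larger with IWR-1 for 9 genes, and in 7 of these, ttn.1, ttn.2, ryr1b, ryr3, actn3b, ldb3a and cacna1sb, IWR-1 replicate 1 was the highest. All 7 span at least 40.8 kb of the genome, the span of cacna1sb, which was at 232.5 CPM in both IWR-1 replicates 1 and 2. Other genes of the 41 span as much. Of these neb was also highest in replicate 1 among the IWR-1 libraries, and tpm2 and atp2a1 were not. Whether span has a part in this was not tested.

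**Figure D4:**
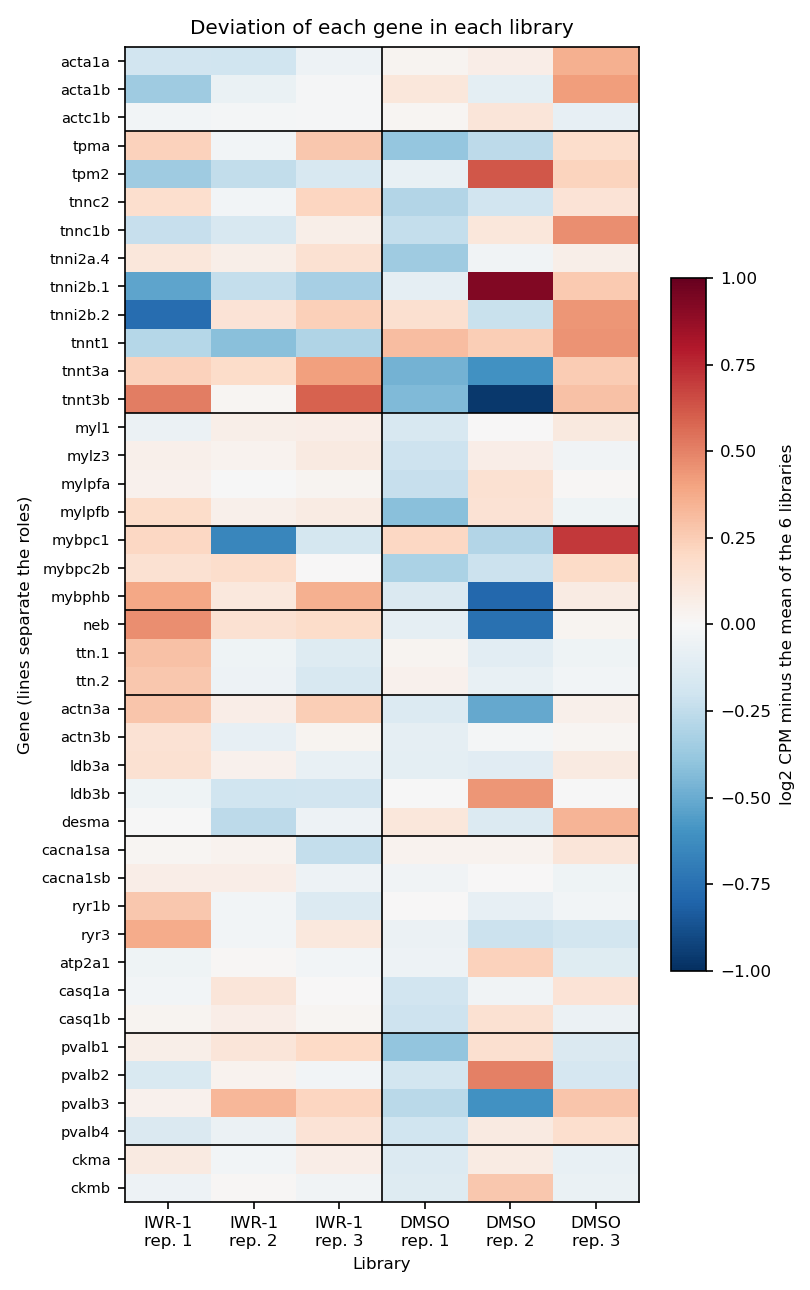
Log2 CPM of each of the 41 genes in each library, minus the mean of that gene over the 6 libraries, with IWR-1 left of DMSO and lines between the roles. Red is above and blue below the gene's mean; DMSO replicate 2 holds the deepest red (tnni2b.1) and the deepest blue (tnnt3b).

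A list of 134 other muscle genes, which did not include the 41, is called here the other sarcomere and coupling genes. It also held muscle enzymes such as pfkmb and pygmb, acetylcholine receptor subunits such as chrng and ubiquitin ligases such as trim63a. The whole list gave 117 tested gene IDs. Of these 11 fell and 3 rose, which is 12.0% of the list against 7.47% of all tested genes, and 9.40% lower against 3.59% and 3 of 117 higher against 3.88%. The median log2 fold change was -0.18. With the block 22 fell and 9 rose, where 8.86% of all tested genes fell and 8.96% rose. The total of 14 was 7 without IWR-1 replicate 2, 4 without IWR-1 replicate 3, 7 without DMSO replicate 1 and 23 without DMSO replicate 3, where 2.98%, 2.26%, 3.39% and 10.7% of all tested genes were called.

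Of the called genes of this list the largest fold change was in an α-actin gene on chromosome 19 (47549568 to 47555956), ENSDARG00000076126, which the deposited annotation names actc1a and the current Ensembl name table actc1c. It had 36.9, 61.0 and 64.4 CPM with IWR-1, against 2.16, 2.83 and 2.11 CPM with DMSO. It rose by 4.52 ± 0.26 SE on the log2 scale (edgeR adjusted p = 2.29e-05) and was called without each library in turn. The other gene named actc1a, ENSDARG00000042535 on chromosome 20 (29476852 to 29483514), fell to 287, 371 and 305 CPM with IWR-1, against 540.1, 661 and 507 CPM with DMSO (log2 fold change -0.83 ± 0.16 SE, adjusted p = 0.0130; 0.0878 without IWR-1 replicate 3). The actin genes of the 41, acta1a, acta1b and actc1b, were between -0.31 and -0.04 in the same libraries. Reads may be shared among all these α-actin genes, so the split among them is uncertain.

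actn2b, an α-actinin, fell by 1.08 ± 0.17 SE to 10.3 to 14.1 CPM with IWR-1 against 24.1 to 29.1 CPM with DMSO (edgeR adjusted p = 0.00389). pfkmb, a muscle phosphofructokinase, fell by 0.81 ± 0.13 SE (adjusted p = 0.00526), and atp2a2a, a calcium pump of the type used in heart and slow muscle in mammals, fell by 0.82 ± 0.15 SE (0.00786). asph, whose products include the junctional protein junctin, fell by 0.90 ± 0.16 SE (0.0081). actn2b and pfkmb were called without each library in turn, atp2a2a was not without IWR-1 replicate 2 (0.0530) and asph not without IWR-1 replicate 3 (0.0584). The paralogs of actn2b and atp2a2a among the 41, actn3a, actn3b and atp2a1, were at 0.38, 0.06 and -0.05, and the difference between paralogs was not tested.

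Genes typical of fast and of slow fibres were also set side by side. All 23 tested genes of the fast list belong to the 41: none was called by edgeR, 4 rose and 1 fell with the block (8.96% and 8.86% of all tested genes), and the median log2 fold change was 0.11. Of 17 tested slow gene IDs 16 had a value below 0, where 9886 of all 19562 tested genes had one. Of the 17, 3 (tnnc1b, tnnt1 and mybpc1) belong to the 41. The list median of -0.45 is the value of mybpc1, which was at most 10.3 CPM in any library. The 3 that fell were actn2b, the ryanodine receptor ryr1a (-0.55 ± 0.15 SE, edgeR adjusted p = 0.0457) and the myosin heavy chain myh7ba (-0.71 ± 0.18 SE, adjusted p = 0.0370), which is 17.6% of the list against 3.59% of all tested genes; 6 fell with the block, where 8.86% of all tested genes did. Only actn2b was called without IWR-1 replicate 2, IWR-1 replicate 3 or DMSO replicate 1, ryr1a was not called with upper-quartile scaling or with scaling without muscle genes, and the median was -0.25 without IWR-1 replicate 2 and -0.15 without DMSO replicate 3. The slow myosin heavy chain smyhc1 was at -0.11 (adjusted p = 0.698), with 2293 to 2764 CPM with IWR-1 against 2541 to 2928 CPM with DMSO. The 3 calls of the slow list are also counted in other lists. actn2b and ryr1a belong to the other sarcomere and coupling genes, and myh7ba to the myosin heavy chains. The difference between the fast and slow lists was not tested.

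Myosin heavy chains took 2.903 ± 0.384% of counts with IWR-1 and 2.496 ± 0.396% with DMSO (SD, n = 3 each). Of 16 tested gene IDs, myhz1.2 and myh6 rose and myhb and myh7ba fell, 4 of 16 where 7.47% of all tested genes were called, with a list median of -0.03. The count of 4 was 1 without IWR-1 replicate 1, IWR-1 replicate 2 or DMSO replicate 1 (5.80%, 2.98% and 3.39% of all tested genes). It was 0 without IWR-1 replicate 3 (2.26%). In the fit with the block 3 heavy chain gene IDs rose and 2 fell, where 8.96% and 8.86% of all tested genes did. Of 19 tested myogenic factors none was called by edgeR, where 7.47% of all tested genes were, and the median was -0.17. With the block 1 was called lower, where 8.86% of all tested genes were.

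**Figure D5:**
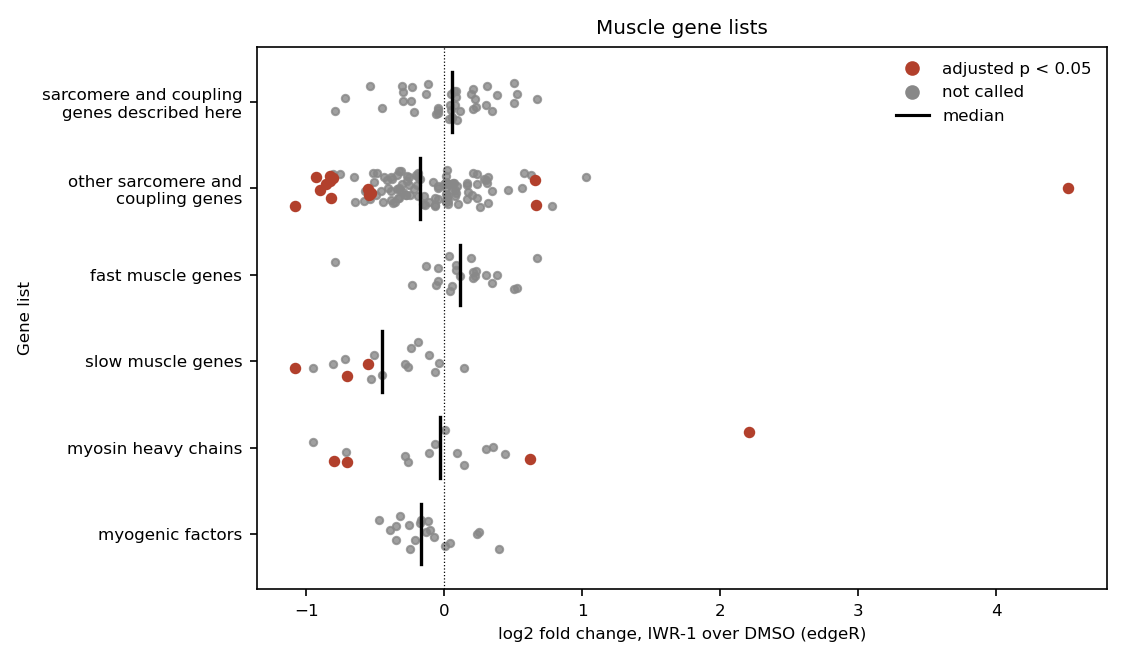
Log2 fold change of IWR-1 over DMSO for each tested gene of 6 muscle gene lists (the 41 genes described here and 5 others), with called genes in red and the list median as a bar. No gene of the first list is called; its median is 0.06, that of the other sarcomere and coupling genes -0.18 and that of the slow list -0.45.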

How the data were processed

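Per the labels' protocols, RNA came from an isolation kit for FFPE material, and rRNA-depleted directional libraries were sequenced; cutadapt, FastQC, STAR, featureCounts and build GRCz11 are named per the submitters' processing notes, with versions and the strand setting not given in the sources used here. The authors deposited raw counts per Ensembl gene. Their deposited comparison holds log2 fold changes, p-values and adjusted p-values with, per the file headers, a mean signal over libraries (baseMean, not used here); the deposited normalised and rlog values were not used. Columns were assigned through the deposited sample sheet.

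edgeR 4.0.16 (R 4.3.3) was run on 22350 genes, 3 against 3 libraries, with filterByExpr, TMM and a robust quasi-likelihood fit, leaving 19562 genes; adjusted p below 0.05 was called. SE is the fold change over the square root of F, and intervals are at 95% from the fit's degrees of freedom. The common biological coefficient of variation was 17.0%. Totals were 11014963 to 15219664 per library. Alternatives were scaling by RLE or upper quartile, the replicate block, scaling without muscle genes or without mitochondrial and the 10 most abundant genes, no filter, CPM of at least 1 in 3 samples, DESeq2 1.42.0 and each library left out. Block fits without both libraries of a number were chosen after seeing the data. Deviations of same-numbered samples from their group means correlated at 0.293, 0.341 and 0.159 over all tested genes. The pairing comes from the data, since the labels do not say what a number shares. Between libraries of a group the chi-square statistic divided by its degrees of freedom was 7.81 or more, so none agreed within sampling noise.

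The genes and lists were chosen with earlier results of these data known. Values per library are given for genes called with or without the block, the gene with the highest mean CPM of each role and the 8 smallest p; in other lists up to 6 called genes are named. smyhc1 and the genes given by fold change alone were named to account for the rest. Where a symbol has several gene IDs, each counts. Opposite-strand partners that overlap the 41 genes, where present in the table, had at most 106 counts per library on average. Same-strand partners reached 899 counts on average, for rbm14b, which overlaps actn3b (18251 counts). Next came hsp70.3 with 253 counts, which overlaps atp2a1 (187048 counts). The part of these partners in the values was not tested.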

Additional observations from a re-analysis of the deposited data

How the results depend on the processing

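With the replicate block 3486 genes were called over all, 17.8% of those tested, and 7 of the 41 muscle genes. The calls were 5 of 23 in the fast list, 6 of 17 in the slow list and 31 of 117 other sarcomere and coupling genes. Of the myosin heavy chains 5 of 16 were called, and of the myogenic factors 1 of 19. With both libraries of replicate number 1, 2 or 3 also left out, the block called 3, 3 and 9 of the 41 (2206, 2305 and 4304 of all genes); tnni2b.1 and tnnt3b were among them each time. DESeq2 called 1 of the 41, a gene of the fast list. No setting other than these and the omission of DMSO replicate 1 or 3 called any of the 41.

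With each library left out in turn, calls ran from 447 to 2117 over all genes, 0 to 4 of the 41, 0 to 4 of the fast list, 1 to 4 of the slow list, 4 to 23 of the other sarcomere and coupling genes and 0 to 4 myosin heavy chains. The medians ran from -0.48 to -0.15 for the slow list and from -0.21 to -0.11 for the other genes. Single fold changes were followed only for those of the 41 genes given above with a value in each library. Among these, the log2 fold changes of 6 uncalled genes near 0 took both signs: ttn.1 (-0.044 to 0.18), pvalb2 (-0.25 to 0.13), atp2a1 (-0.12 to 0.073), ckmb (-0.14 to 0.078), mylpfa (-0.062 to 0.14) and actc1b (-0.094 to 0.015). Without mitochondrial genes in the total, the 41 genes took 22.5% of counts with IWR-1 and 20.8% with DMSO, and the groups no longer overlapped. The causes were not tested. Among single genes, 200 of the recomputed values kept their sign and their side of the threshold. Another 25 crossed the threshold and were called, and 6 changed sign. Every gene called with the block was among those followed, and the tally includes the fits with the block. Part of the crossings was thus fixed by the choice of genes, and each gene is counted again in every setting.

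With 3 samples a group, the 95% interval of a gene of the 41 reached 0.36 to either side at the median on the log2 scale. Smaller differences were thus mostly not detectable. This interval is not adjusted for the number of tested genes, and larger differences were not called either. Examples are tnni2b.1 at -0.79 and tnnt3b at 0.67 (edgeR adjusted p = 0.0593 and 0.175). For a gene whose interval reaches that far, the absence of a call therefore does not exclude a difference of this size. The intervals of 22 of the 41 genes lay within a 1.5-fold change in either direction.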
